A study of Mus musculus with 54 samples.

Results

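Round spermatids of compound mutant (CM) mice were compared with round spermatids of BORIS KO mice, using the 3 RNA-seq libraries of each group, 6 of the 54 samples in the series. The libraries were taken by genotype and cell type from their titles, in which the compound mutant is called DKO. Both groups lack *Boris* (*Ctcfl*) on both alleles, Boris-/-. BORIS KO mice keep both *Ctcf* alleles, whereas CM mice carry 1, Ctcf+/-. All mice were C57BL/6 males aged 3 months, neither deletion is limited to germ cells, CM males came from CTCF HET mothers and BORIS KO fathers, and each germ cell preparation pooled 4 mice. Round spermatids had been enriched by elutriation and sorted after staining with Vybrant DyeCycle Green. Whether the 3 libraries of a group came from separate preparations is not given in the sources used here, so p-values measure only the spread between these libraries, which may be technical. WT and CTCF HET round spermatids, and BORIS KO and CM spermatocytes and whole testis, were used beside them.

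CTCF is a zinc finger protein that binds insulators and promoters and holds the base of cohesin-dependent chromatin loops. BORIS is its testis-specific paralog, has nearly the same DNA-binding domain and is switched on in male germ cells before meiosis. Round spermatids are haploid cells that have completed meiosis, build the acrosome and the flagellum, and store transcripts for the later replacement of histones by transition proteins and protamines. The comparison asks which transcripts differ in these cells when 1 *Ctcf* allele is removed from mice that already lack BORIS.

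*Ctcf* (chromosome 8, 108160468 to 108206822 in mm9, plus strand) did not fall in the CM-labelled libraries. Levels are given throughout as CPM, the count of a gene scaled to the size of its library. *Ctcf* stood at 27.7, 25.9 and 29.8 CPM in BORIS KO and at 177, 47.9 and 39.8 CPM in the CM-labelled libraries, so all 3 of the latter lay above all 3 of the former and replicate 1 far above the others. The log2 fold change of 1.70 ± 0.58 (SE) did not pass the test (adjusted p = 0.0736, edgeR), although DESeq2 and a fit with all 4 genotypes called it, and without replicate 1 the log2 fold change was 0.63. *Ctcf* stood at 49.7, 31.2 and 29.6 CPM in WT and at 34.1, 22.4 and 25.4 CPM in CTCF HET round spermatids. CM-labelled replicates 2 and 3 thus lay within the WT range, and the BORIS KO libraries within the CTCF HET range. In whole testis *Ctcf* stood at 24.3 to 26.9 CPM in CM and 30.7 to 38.8 CPM in BORIS KO, with no overlap. The log2 fold change there was -0.45 ± 0.22, not called (adjusted p = 0.265, edgeR). In spermatocytes it stood at 28.8 to 30.4 CPM in BORIS KO and at 83.6, 33.1 and 32.4 CPM in the libraries labelled CM, again without overlap and with the highest value in replicate 1 (log2 fold change 0.75 ± 0.35, not called, adjusted p = 0.111, edgeR). The level of *Ctcf* thus goes against the label in both sorted cell types, and the groups of both are called CM-labelled here.

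*Rltpr* (*Carmil2*; chromosome 8, 108210174 to 108222078, plus strand), the gene that follows *Ctcf* and encodes a regulator of actin filaments, gave a second check. It stood at 2.02, 1.92 and 1.63 CPM in BORIS KO and at 58.8, 30.1 and 33.6 CPM in the CM-labelled libraries. The groups were far apart, with a log2 fold change of 4.48 ± 0.36 (adjusted p = 0.00805, edgeR). *Rltpr* was also higher in CTCF HET than in WT round spermatids (70.1 ± 8.84 against 0.909 ± 0.279 CPM, SD, n = 3), so it rose in both groups that carry 1 *Ctcf* allele by their labels. *Ctcfl*, deleted in both groups, still gave 2.12 to 2.46 CPM in BORIS KO and 1.11 to 2.63 CPM in the CM-labelled libraries, with overlapping values (log2 fold change -0.27 ± 0.44, adjusted p = 0.69, edgeR). It stood at 2.90, 5.11 and 3.40 CPM in WT and at 2.63, 3.19 and 3.51 CPM in CTCF HET. The BORIS KO values lay below all of these but not far below, and CM-labelled replicate 1 equalled the lowest CTCF HET library, so the *Ctcfl* level checks the BORIS KO label only weakly. What the remaining *Ctcfl* reads come from was not tested.

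Total counts were 64672742 to 70828024 in BORIS KO and 63503144 to 80170849 in the CM-labelled libraries. Fewer genes had a count in the latter, 14932 to 16670 against 18794 to 18978. Genes with at least 10 counts were nearer in number, 14555 to 15490 against 15347 to 15627. In CM-labelled replicates 2 and 3 nearly all genes with a count had at least 10, 15240 of 15625 and 14555 of 14932. Low counts were thus rare there, and a count of 0 in these libraries is an uncertain measure of level. The BORIS KO libraries were alike, with a median SD of 0.15 (log2 CPM) per gene, whereas the CM-labelled libraries spread by 0.59. CM-labelled replicate 2 stood furthest from the others, with a Pearson r of log2 CPM across genes of 0.898 and 0.908 to its own group, compared with 0.955 between replicates 1 and 3 and 0.991 to 0.997 among the BORIS KO libraries.

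The base composition of the counted reads also separated the groups. The mean exon GC content of the genes, weighted by their counts, was 49.4 to 49.5% in BORIS KO and 46.7 to 47.5% in the CM-labelled libraries. It was 46.9 to 47.6% in WT and 47.7 to 48.5% in CTCF HET round spermatids, so the BORIS KO libraries stood highest of the 4 genotypes. In the lowest quartile of exon GC content (median 42.3% GC) 1018 of 3772 genes were higher and 14 lower in the CM-labelled libraries, whereas in the highest quartile (57.1% GC) 27 of 3770 were higher and 926 lower. The median log2 fold change fell from 0.85 in the lowest quartile through 0.23 and -0.30 to -0.89 in the highest. Calls and medians of the gene lists are therefore given also with a GC offset, a fit in which each library's smooth trend on exon GC content was removed. Of 95 genes selected for naming that were called without the offset and have a GC value, 26 were called with it. Whether the GC trend comes from the cells or from the preparation of the libraries was not tested.

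**Figure D1:**
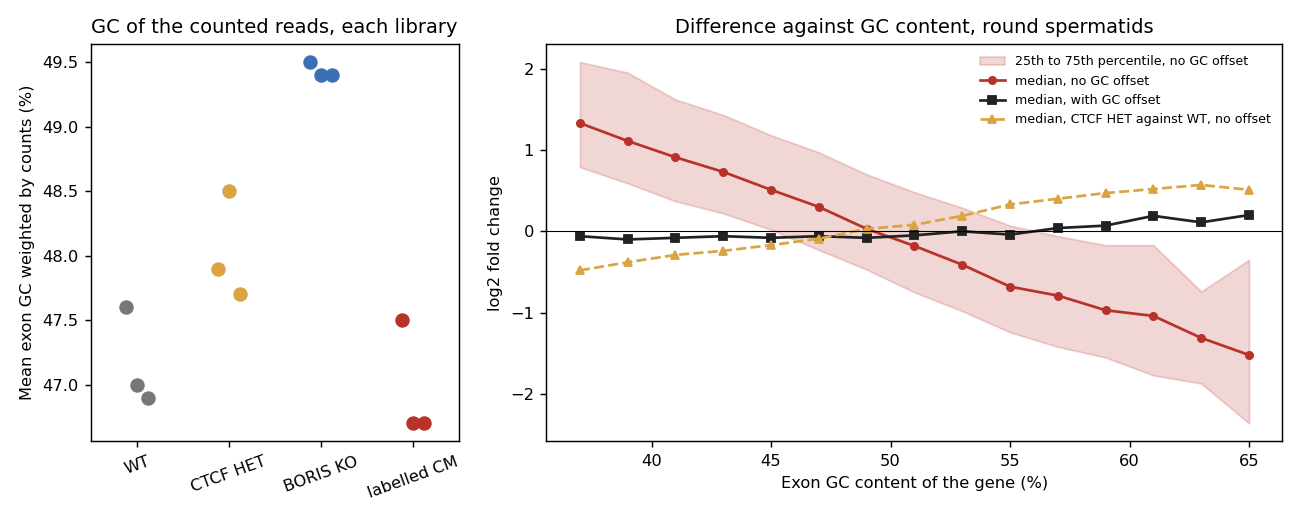
Left, mean exon GC content of the genes weighted by counts (%), 1 point for each round spermatid library. Right, log2 fold change of CM-labelled against BORIS KO round spermatids (vertical axis) against the exon GC content of the gene (%), as the median and the 25th to 75th percentile in bins of 2%, with the median after the GC offset and the median for CTCF HET against WT. The uncorrected median falls from 1.33 at 36 to 38% GC to -1.52 at 64 to 66%, and stays between -0.10 and 0.20 with the offset.

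A gene was called at adjusted p < 0.05 (edgeR) and a fold change above 2. Of 15602 genes tested, 2868 (18.4%) were called, 1483 (9.51%) higher and 1385 (8.88%) lower in the CM-labelled libraries. With the GC offset 301 of 15081 genes (2.00%) were called, 162 (1.07%) higher and 139 (0.922%) lower, and 214 genes (121 higher, 93 lower) were called in both fits, which is 7.62% of the annotated calls without the offset and 71.1% of those with it. The number of calls rested on single libraries. It was 0 without any 1 of the BORIS KO libraries, 192 without CM-labelled replicate 3, 3289 without replicate 2 and 5243 without replicate 1. At an adjusted p < 0.001 edgeR called 0 genes in this fit of 6 libraries and 1258 in a fit with all 4 genotypes, and DESeq2 called 2252. In 8056 genes (51.6%) the groups did not overlap, 3660 (23.5%) with every CM-labelled library above and 4396 (28.2%) with every one below.

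The 10 genes with the smallest p among those called higher include factors of RNA processing, DNA repair and trafficking. *Hspb11*, a subunit of the intraflagellar transport machinery, stood at 15.9, 14.6 and 16.2 CPM in BORIS KO and at 91.9, 114 and 122 CPM in the CM-labelled libraries. It rose 7.06-fold (log2 fold change 2.82 ± 0.18, adjusted p = 0.00805, edgeR) and by 2.21 on the log2 scale with the GC offset. *Hnrnpr*, a nuclear ribonucleoprotein, stood at 63.2, 60.0 and 56.2 CPM in BORIS KO against 291, 468 and 440 CPM. The groups were well separated in both genes, and the lowest CM-labelled value in each belonged to replicate 1.

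*Sfr1*, a mediator of homologous recombination, had the largest difference of these 10 genes after *Rltpr*. It stood at 56.3, 61.7 and 77.1 CPM in BORIS KO and at 509, 850 and 992 CPM in the CM-labelled libraries, a log2 fold change of 3.59 ± 0.31 (2.82 with the GC offset). *Fancd2*, of the Fanconi anaemia repair pathway, stood at 39.3 to 42.7 and 129 to 178 CPM. *Zfp326*, a zinc finger protein, and *Rpf2*, a factor of ribosome assembly, rose by 3.17 and 2.45, and *Snx4*, a sorting nexin of endosomes, and the uncharacterised *1300002E11Rik* by 2.40 and 3.19. *Zfp280d*, another zinc finger gene, rose by 2.00 and had a log2 fold change of 0.83 with the offset, where it was no longer called. The other 9 of these genes were called with the offset too.

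Among the 10 genes with the smallest p in the other direction, 2 encode proteins of the large ribosomal subunit. *Rpl13* stood at 90.0, 80.9 and 69.5 CPM in BORIS KO and at 17.9, 10.0 and 12.4 CPM in the CM-labelled libraries (log2 fold change -2.55 ± 0.27, adjusted p = 0.00805, edgeR; -2.19 with the GC offset). *Rpl24* stood at 41.4 to 50.1 against 15.5 to 16.7 CPM, and its difference was larger with the offset (-2.12) than without (-1.51). The transcript with the largest fall of the 10, *1700003F12Rik*, stood at 61.9, 59.8 and 60.0 CPM against 8.63, 5.73 and 4.52 CPM, and its exons hold 64.3% GC. *1700037H04Rik* fell from 333 to 407 CPM to 67.4 to 106 CPM. *Fam108a*, *1700125D06Rik*, the homeobox gene *Nkx2-6* and the chemokine gene *Ccl27a* fell by 2.38, 2.70, 1.74 and 1.63 on the log2 scale, and none of these 4 was called with the offset, whereas *A930018P22Rik* (-2.55; -1.25 with the offset) and *4930596M17Rik* (-2.36; -1.87) were.

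WT round spermatids resembled the CM-labelled group rather than BORIS KO in most of these genes. *Hspb11* stood at 121 ± 21.2 CPM in WT and *Hnrnpr* at 264 ± 22.6, *Rpl13* at 15.6 ± 2.25 and *1700003F12Rik* at 18 ± 0.337 CPM (SD, n = 3). The WT mean lay nearer to the CM-labelled mean than to the BORIS KO mean, on the log2 scale, for 9 of the 10 higher and 9 of the 10 lower genes. This held for 61.6% of all genes called higher, 80.1% of those called lower and 86.9% of the 214 called in both fits, beside 55.2% of all genes tested. The CTCF HET mean lay nearer to the CM-labelled mean for 9 of the 10 higher and 8 of the 10 lower genes. Over all calls it did so for only 45.9% of those higher and 46.4% of those lower, beside 42.2% of all genes tested. Of the 214 genes it did so for 67.3%.

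**Figure D2:**
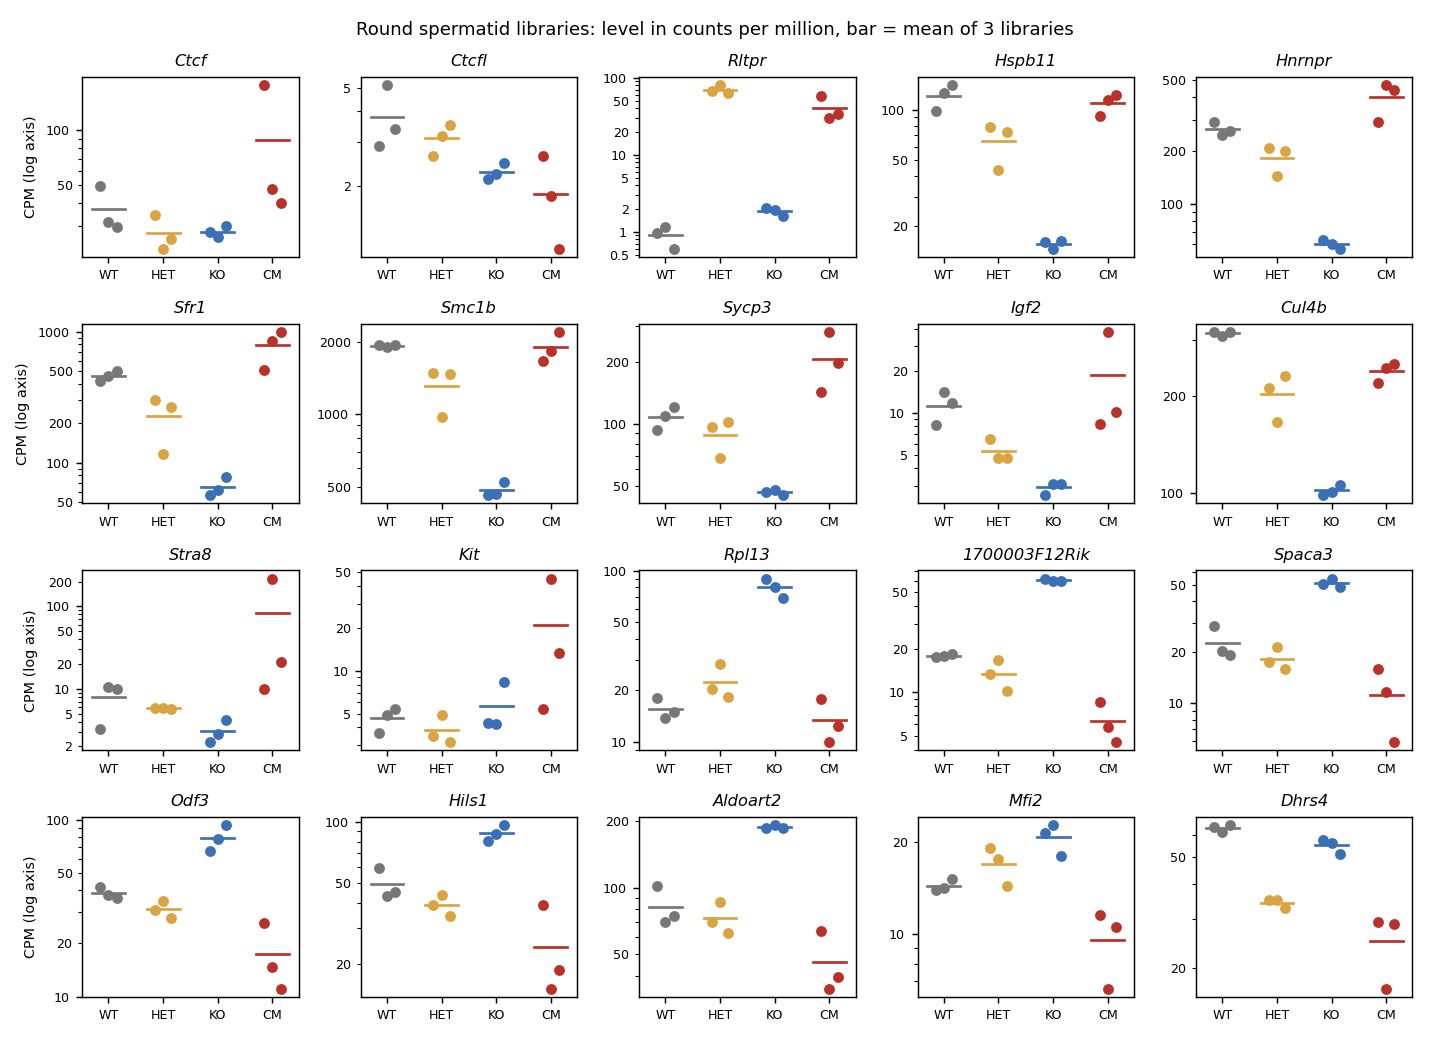
Level of 20 named genes in CPM (log axis) in each round spermatid library, with the mean of the 3 libraries as a bar, for WT, CTCF HET, BORIS KO and the CM-labelled group. BORIS KO lies apart from the other 3 genotypes in *Hspb11*, *Smc1b*, *Rpl13* and *Spaca3*, and CM-labelled replicate 2 carries the high values of *Stra8* (217 CPM) and *Kit* (45.0 CPM).

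Markers were summed to check the label of the cells. The 20 round spermatid markers, which include transition proteins, protamines and acrosome genes, summed to 2963 to 3825 CPM in BORIS KO and 2131 to 2673 CPM in the CM-labelled libraries. The 23 spermatocyte markers found, genes of the synaptonemal complex and of meiotic recombination, summed to 2423 to 2516 CPM in BORIS KO against 4809, 5709 and 6559 CPM. The 18 spermatogonium markers summed to 45.5 to 69.9 CPM against 80.4, 472 and 102 CPM, with the high value in replicate 2. In bulk samples fewer cells of a type and less RNA per cell cannot be told apart. Sertoli cell markers summed to 16.8 to 18.8 and 26.8 to 69.5 CPM, Leydig cell markers to 18.5 to 23.5 and 10.4 to 16.0 CPM, macrophage markers to 87.7 to 108 and 27.2 to 58.2 CPM and stroma and endothelium markers to 16.3 to 18.5 and 14.3 to 20.5 CPM. Red cell and epididymis markers stayed at or under 1.92 CPM, and 5 of 11 Leydig, 7 of 17 macrophage and 5 of 6 red cell markers had no count in any CM-labelled library. In BORIS KO this held for 1, 2 and 4 of them. A single gene made up most of 2 of these sums. *Aif1* gave 83.1 to 105 CPM of the macrophage sum in BORIS KO and 22.6 to 55.3 CPM in the CM-labelled libraries, and *Fdx1* gave 17.1 to 22.0 and 9.26 to 14.1 CPM of the Leydig sum. *Aif1* stood at only 2.15 to 7.66 CPM in the spermatocyte libraries of both groups. The part of these cells in the results was not tested.

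Of 23 spermatocyte markers tested 11 (47.8%) were higher in the CM-labelled libraries and 1 (4.35%) lower, beside 9.51% and 8.88% of all genes. Their median log2 fold change was 1.98, beside 0.05 over all genes. *Sycp3*, which forms the lateral elements of the synaptonemal complex, stood at 46.6, 47.5 and 44.9 CPM in BORIS KO and at 143, 281 and 198 CPM in the CM-labelled group (log2 fold change 2.16 ± 0.25, adjusted p = 0.00881, edgeR). *Sycp1*, its central element, stood at 128 to 141 against 497, 758 and 953 CPM, and *Sycp2* at 232 to 235 against 737, 982 and 1237 CPM. *Hormad1*, a protein of unsynapsed chromosome axes, rose by 2.39 (20.3 to 23.6 CPM in BORIS KO against 54.5, 179 and 111 CPM). These genes are poor in GC, 34.6% in *Sycp1* and 44.0% as the list's median. None of the 23 was called with the GC offset, where the median was 0.69. The median was 1.21 without CM-labelled replicate 2 and 1.83 to 2.00 without any other library, while the higher calls numbered 13, 12 and 3 without CM-labelled replicate 1, 2 and 3 and 0 without any 1 BORIS KO library.

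Cohesin and its regulators, the ring that CTCF stops in loop formation, were also mostly higher, 11 of 20 higher (55%) and 1 lower (5%). Over all genes 9.51% were higher and 8.88% lower. The median of the list was 1.26. The meiotic subunit *Smc1b* stood at 461, 467 and 522 CPM in BORIS KO and at 1671, 1827 and 2199 CPM in the CM-labelled libraries (log2 fold change 1.98 ± 0.21, adjusted p = 0.00805, edgeR). *Smc3*, part of every cohesin ring, stood at 126 to 143 against 335 to 609 CPM. *Esco1*, an acetyltransferase of *Smc3*, and *Pds5a*, a cohesin regulator, rose by 1.80 and 1.37. *Mau2*, which loads cohesin together with *Nipbl*, stood at 44.5 to 57.8 CPM against 16.2 to 23.0 CPM and fell by 1.49. With the GC offset *Mau2* was the 1 member called (-1.22), *Smc1b* and *Smc3* stood at 0.85 and 0.83, and the median was 0.53. Without CM-labelled replicate 3 the list had 1 higher call, and without any 1 BORIS KO library 0. *Smc1b*, *Rec8*, *Stag3* and *Rad21l* belong both to this list and to the spermatocyte markers, so the lists are not independent.

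Imprinted genes, several of which have CTCF sites in their control regions, gave 6 higher (40%) and 0 lower calls among 15 tested of 20, beside 9.51% and 8.88% of all genes. Their median was 1.79 (2 higher and a median of 1.32 with the GC offset). *Igf2*, the paternally expressed growth factor, stood at 2.56, 3.11 and 3.10 CPM in BORIS KO and at 8.25, 38.0 and 10.1 CPM in the CM-labelled libraries, and *Cdkn1c*, a maternally expressed cell cycle inhibitor, at 0.964 to 1.39 against 3.22 to 5.71 CPM. Both were called without (2.67 ± 0.61 and 1.79 ± 0.41) and with the GC offset (3.45 and 2.97). The antisense transcript *Kcnq1ot1* stood at 6.08 to 6.79 against 15, 56.6 and 28.6 CPM. It overlaps *Kcnq1* and the use of strand in counting is not given in the sources used here, so its reads cannot be told from those of *Kcnq1*. *Grb10*, an adaptor of growth factor receptors, and *Peg10*, a retrotransposon-derived gene, rose by 1.05 and 4.01, *Peg10* from at most 0.134 CPM. *Peg10* thus passed the low-count filter through the CM-labelled libraries, where it is high. Without replicate 2 the median was 0.82, with 5 higher, and 0 were called higher without replicate 3 or without any 1 BORIS KO library. WT round spermatids had 8.11, 14.0 and 11.7 CPM of *Igf2*, nearer to the CM-labelled than to the BORIS KO mean. They had 9.78, 92.6 and 78.8 CPM of *Kcnq1ot1*, of which the first lay nearer to BORIS KO.

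The X chromosome is silenced in spermatocytes and stays largely repressed in round spermatids, where a limited set of X-linked genes is expressed. Of 1004 X-linked genes 583 were tested, of which 138 (23.7%) were higher and 11 (1.89%) lower, beside 9.51% and 8.88% of all genes. Their median log2 fold change was 1.04 beside 0.02 for autosomal genes. X-linked genes took 0.481 to 0.567% of the counts in BORIS KO and 0.713, 1.73 and 0.843% in the CM-labelled libraries, beside 0.861 to 0.928% in WT. *Cul4b*, a ubiquitin ligase scaffold, stood at 98.3, 101 and 106 CPM in BORIS KO and at 221, 245 and 253 CPM in the CM-labelled group. *Zfp711*, *Upf3b* of the nonsense-mediated decay pathway, *Ap1s2*, an adaptor of clathrin coats, and *Nxt2*, a factor of mRNA export, rose by 1.68, 2.04, 1.94 and 2.24, with no overlap. Their exons hold 36.8 to 42.7% GC, and none of these 5 was called with the GC offset.

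The X-linked median was above the autosomal one at each level of GC content. It was 1.47 against 0.80 in the lowest GC quartile (319 X-linked genes), 0.79 against 0.22 in the next (140 genes), 0.30 against -0.31 in the third (91 genes) and -0.44 against -0.89 in the highest (33 genes). With the GC offset it was 0.31 to 0.51 over the 4 quartiles, against -0.09 to 0.03 for autosomal genes, and 0 X-linked genes were called higher and 1 lower. Without CM-labelled replicate 2, which had the largest X-linked share, the X-linked median without the offset was 0.59, with 136 higher and 20 lower, and it stayed above the autosomal one in each quartile (0.96 against 0.73, 0.38 against 0.19, -0.08 against -0.32 and -0.85 against -0.92). Without CM-labelled replicate 3 the X-linked calls were 9 higher and 1 lower, and without any 1 BORIS KO library 0. In the separate spermatocyte libraries of the same labels 188 of 307 X-linked genes were higher and 0 lower (median 2.30), where 11.9% of all genes were higher and 12.3% lower. There 133 were higher and 0 lower with the GC offset (median 1.55), beside 6.09% and 3.86% of all genes. X-linked genes took only 0.016 to 0.018% of the counts in BORIS KO spermatocytes and 0.0465 to 0.123% in the CM-labelled ones, so these levels are low. The share was 0.0154 to 0.0166% in WT and 0.0317 to 0.0783% in CTCF HET spermatocytes. WT thus lay near BORIS KO in spermatocytes, whereas in round spermatids its share was well above that of BORIS KO. Whether the X-linked reads of the spermatocyte libraries come from other cells was not tested. Of the 9 Y-linked genes tested 4 were higher (44.4%, beside 9.51% of all genes) and 0 lower, with a median of 1.44 that dropped to 0.08 with the GC offset.

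**Figure D3:**
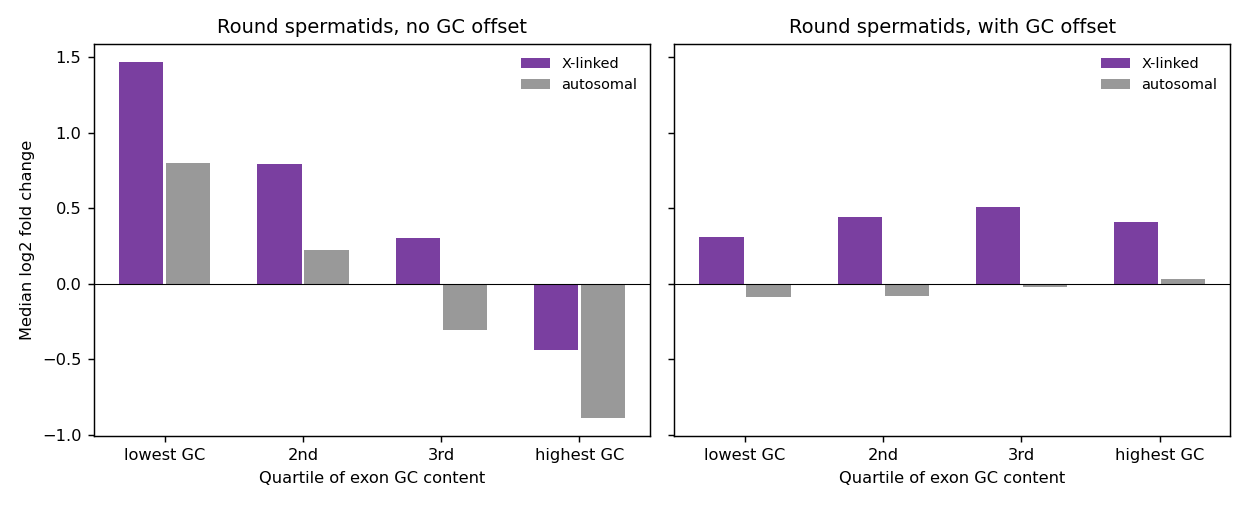
Bars show the median log2 fold change of CM-labelled against BORIS KO round spermatids for X-linked and autosomal genes in the 4 quartiles of exon GC content, without (left) and with (right) the GC offset. The X-linked median exceeds the autosomal one in each quartile, from 1.47 against 0.80 to -0.44 against -0.89 on the left and by a smaller margin on the right.

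The round spermatid markers were lower or not called, with 0 of 20 higher and 7 lower (35%), beside 8.88% lower of all genes. Their median was -0.83, or -0.66 with the GC offset, where none was called. *Hils1*, a spermatid-specific linker histone, stood at 80.5, 87.0 and 96.1 CPM in BORIS KO and at 39.0, 15.2 and 18.7 CPM in the CM-labelled libraries (log2 fold change -1.83 ± 0.38, adjusted p = 0.0222, edgeR). The transition protein gene *Tnp2* stood at 76.8, 76.0 and 227 against 31.7, 42.9 and 12.2 CPM and fell by 2.14, and the high BORIS KO value belonged to replicate 3. Among 16 genes of chromatin condensation 5 were lower (31.2%), which include *H1fnt*, another spermatid linker histone (-1.63), *Tssk6*, a kinase needed for condensation (-2.75), and *Pygo2*, a reader of histone methylation (-1.12), and 0 were higher. None of the 16 was called with the offset, where the median went from -0.78 to -0.23. *Hils1*, *Tnp2* and *H1fnt* belong to both lists, so the lists are not independent. Without CM-labelled replicate 3, or without any 1 BORIS KO library, 0 members of either list were called lower.

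Acrosome and fusion genes gave 1 higher (3.12%) and 5 lower (15.6%) calls among 32, beside 9.51% and 8.88% of all genes. Their median was -0.11, or -0.49 with the GC offset, where 1 was lower. *Spaca3*, a lysozyme-like protein of the acrosome, stood at 50.9, 54.6 and 48.8 CPM in BORIS KO and at 16.0, 11.6 and 5.89 CPM in the CM-labelled group, and was called without (-2.18 ± 0.37) and with the GC offset (-1.70). *Spaca4*, a sperm membrane protein that takes part in the binding of the egg coat, *Lyzl4* and *Lyzl6* fell by 2.76, 1.47 and 1.00. *Gopc*, a Golgi protein needed for formation of the acrosome, rose from 15.9 to 17.9 CPM to 45.8 to 70.8 CPM, and none of these 4 genes was called with the offset. The summed level of the list, which its most abundant members decide, was 9819 to 10499 CPM in BORIS KO and 8796 to 12952 CPM in the CM-labelled libraries, so the sums overlapped.

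Of 39 flagellum genes tested 2 were higher (5.13%) and 5 lower (12.8%), beside 9.51% and 8.88% of all genes. Their median was -0.41, or -0.37 with the GC offset. *Odf3*, of the outer dense fibres, stood at 66.7, 78.2 and 93.1 CPM in BORIS KO and at 26.1, 14.8 and 11.1 CPM in the CM-labelled libraries. *Oaz3*, the testis antizyme, fell by 1.33 and was the 1 member called with the offset (-1.26). *Tekt4*, a tektin of the axoneme, and *Tcp11*, which acts in sperm motility, fell by 1.26 and 1.59 (log2 fold changes of -0.36 and -1.15 with the offset, not called), and *Meig1*, needed for the manchette, rose by 1.19 (1888 to 2163 against 3736 to 5665 CPM). Of the 19 ion channel and cAMP genes 1 was higher (5.26%), 3 were lower (15.8%) and 15 were not called. Their median was -0.42, or -0.44 with the offset, where none was called. Among the CatSper subunits of the sperm calcium channel *Catsperb* rose by 1.54 and *Catsper4* fell by 1.20, while their GC contents are 37.2% and 51.4%. The other subunits tested were not called. *Atp1a4*, the sperm sodium pump, and *Prkaca*, the catalytic subunit of protein kinase A, fell by 1.30 and 1.09 (log2 fold changes of -1.26 and -0.48 with the offset).

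Testis kinases gave 3 higher (21.4%) and 6 lower (42.9%) calls among 14, beside 9.51% and 8.88% of all genes. *Stk31*, *Plk4*, which drives centriole duplication, and *Nek1* rose by 1.67, 1.30 and 1.22 and have exons of 39.4 to 40.5% GC, while *Tssk4* and *Tssk5*, of the testis-specific serine kinases, fell by 1.56 and 1.48 and have 52.6 and 54.8%. None was called with the GC offset, which left the median at -0.69 (-0.72 without). Among 22 regulators of spermatid transcription 3 were higher (13.6%) and 4 lower (18.2%). Their median was -0.08, or -0.09 with the offset, where none was called. The RFX factors *Rfx1* and *Rfx2*, which bind promoters of cilia genes, fell by 1.87 and 1.19, and *Kif17*, a kinesin that carries a coactivator of CREM, by 1.75. *Mybl1*, a master regulator of pachytene genes, stood at 52.0 to 57.6 against 106 to 180 CPM. The X-linked *Taf7l*, a subunit of a germ cell form of TFIID, stood at 29.9 to 38.7 against 77.4, 451 and 108 CPM, with a log2 fold change of 2.66 ± 0.65 and the largest value in replicate 2.

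Energy metabolism of spermatids rests in part on enzymes of glycolysis and of the respiratory chain that are encoded by testis-specific genes. Of 20 genes of energy and phosphate metabolism 5 were lower (25%) and 1 higher (5%), beside 8.88% and 9.51% of all genes. Their median was -0.56, or -0.62 with the GC offset. The aldolase *Aldoart2* stood at 186, 192 and 186 CPM in BORIS KO and at 64.0, 34.9 and 39.5 CPM in the CM-labelled libraries, and the cytochrome oxidase subunit *Cox6b2* at 121 to 142 against 21.6 to 47.3 CPM. Both were called without (-2.01 ± 0.27 and -2.02 ± 0.32) and with the offset (-1.59 and -1.40). *Pgam2*, a phosphoglycerate mutase, fell by 1.46, and the testis cytochrome c gene *Cyct* rose by 1.44. *Phospho1*, a phosphatase, had 37, 43 and 96 counts in BORIS KO and 0 in each CM-labelled library, which makes it at least 19.1-fold lower when 3 counts per library are taken as the floor. Low counts were rare in CM-labelled replicates 2 and 3, so this floor is uncertain. The summed level of the list was 9372 to 9893 CPM against 5079 to 7783 CPM, with no overlap.

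Ribosomal protein genes, the largest functional list, were taken by symbol, Rpl or Rps followed by a number. This pattern can also match genes of kinases that are named after ribosomal proteins. The list had more calls with the GC offset than any other of these lists. Of 90 tested 20 were lower (22.2%) and 2 higher (2.22%), with a median of -0.64. With the offset 9 of 89 were lower and 2 higher (median -0.38), where 0.922% of all genes were lower and 1.07% higher. The summed level of the 94 genes found was 4670 to 4935 CPM in BORIS KO and 3713, 4693 and 3543 CPM in the CM-labelled libraries, so replicate 2 lay within the BORIS KO range. *Rps14*, of the small subunit, stood at 84.7, 84.9 and 60.5 CPM in BORIS KO and at 16.3, 10.2 and 7.96 CPM in the CM-labelled libraries (log2 fold change -2.72 ± 0.32, adjusted p = 0.00990, edgeR). *Rpl37a* stood at 28.4 to 38.9 against 8.4 to 10.6 CPM. *Rpl23* moved the other way, from 147 to 155 CPM to 313 to 597 CPM, and was called in both fits (1.62 and 1.70). These genes have many processed pseudogenes, and how the authors' counting shared reads among the copies is not given in the sources used here, so single members are uncertain. WT values of *Rps14* and *Rpl37a* were 11.9 and 11.2 CPM. Of 68 canonical histone genes, whose transcripts mostly lack the poly(A) tail that these libraries select, 22 were tested and 1 was lower, *Hist1h2bp* (-1.06).

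Genes of RNA storage and the piRNA pathway gave 1 higher (3.57%) and 2 lower (7.14%) calls among 28, both shares below those over all genes, with a median of 0.30 (-0.17 with the GC offset). *Ybx2*, the main masking protein of stored mRNA, stood at 2644 to 2840 CPM in BORIS KO and at 997 to 1445 CPM in the CM-labelled libraries (log2 fold change -1.18 ± 0.23). Its exons hold 62.5% GC and its log2 fold change with the GC offset was 0.22. *Tarbp2*, an RNA-binding partner of Dicer, fell by 1.57. *Dazl*, an RNA-binding protein of early germ cells, stood at 20.6, 22.1 and 35.2 CPM in BORIS KO and at 54.3, 576 and 103 CPM in the CM-labelled group, with the largest value in replicate 2.

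The spermatogonium list had 1 call among 17 tested, *Stra8*, the retinoic acid target that licenses entry into meiosis. It stood at 2.26, 2.83 and 4.2 CPM in BORIS KO and at 9.90, 217 and 21.1 CPM in the CM-labelled libraries (log2 fold change 4.71 ± 1.19, adjusted p = 0.0342, edgeR) and was not called with the GC offset. *Kit*, the stem cell factor receptor of differentiating spermatogonia, stood at 4.31, 4.19 and 8.4 against 5.36, 45.0 and 13.4 CPM, and the groups overlapped. In both genes replicate 2 held the largest value. The list's median was 0.97 with this library and 0.46 without it, or 1.49 with the GC offset. In the Sertoli list 2 of 12 were higher, the transcription factor *Wt1* at 0.0142 to 0.0267 CPM in BORIS KO against 0.489 to 0.593 CPM, and *Ctsl*, a protease, at 1.80 to 3.47 against 4.30, 63.4 and 15.9 CPM. Among macrophage and endothelial markers *Aif1* and *Vwf* fell by 1.28 and 1.87, while *Star* and *Fdx1* of the Leydig list, *Slc4a1* of the red cell list and *Defb20* of the epididymis list were not called. *Fdx1* was lower with the GC offset (-1.67).

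Apoptosis and p53 genes had 2 higher (9.52%) and 1 lower (4.76%) calls among 21, and a median of 0.55 (0.67 with the GC offset). *Bcl2l1*, an inhibitor of apoptosis, fell by 1.18, and the X-linked inhibitor *Xiap* stood at 0.996 to 2.06 against 3.00, 40.9 and 6.81 CPM. Stress and early response genes had 0 higher and 2 lower calls among 23 (8.7% lower, near the 8.88% of all genes), and a median of 0.05 (0.61 with the offset). *Dnajb1*, a heat shock cochaperone, stood at 444 to 541 against 175 to 267 CPM, and *Junb* at 1.68 to 2.85 against 0.503 to 0.748 CPM. None of these 4 genes was called with the GC offset.

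Of 16 loci that the study examined, which were partly chosen on samples of this series and are no independent list, 15 were tested. Of these 3 were lower (20%, beside 8.88% of all genes) and 0 higher (median 0.15, or 0.68 with the GC offset). *Mfi2* stood at 21.4, 22.6 and 18 CPM in BORIS KO and at 11.5, 6.63 and 10.5 CPM in the CM-labelled libraries (log2 fold change -1.10 ± 0.28, adjusted p = 0.0357, edgeR). *Dhrs4*, a retinal reductase, stood at 51.3 to 57.9 against 16.8 to 29.3 CPM, and *Prss38*, a serine protease, at 4.49 to 5.68 against 1.72 to 2.85 CPM. No overlap was seen in these 3 genes, and none was called with the GC offset (-0.29, -0.60 and -0.99). Desaturase genes *Fads1* and *Fads2*, the cholesterol exporter *Abca1* and the X-linked genes *Cask* and *Irak1* had log2 fold changes of 1.37, 1.73, 1.69, 3.38 and 1.73 that did not pass the test, and in each the largest value was that of replicate 2. *Fert2* stood at 63.7 to 70.3 and 62.7 to 67.5 CPM. *Ankrd52*, *Ssr4*, *Spns2*, *Prss50* and *Ntn5* were not called, and *Gal3st1*, at 0.107 to 0.228 CPM in BORIS KO and 0 in 2 CM-labelled libraries, was not tested.

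**Figure D4:**
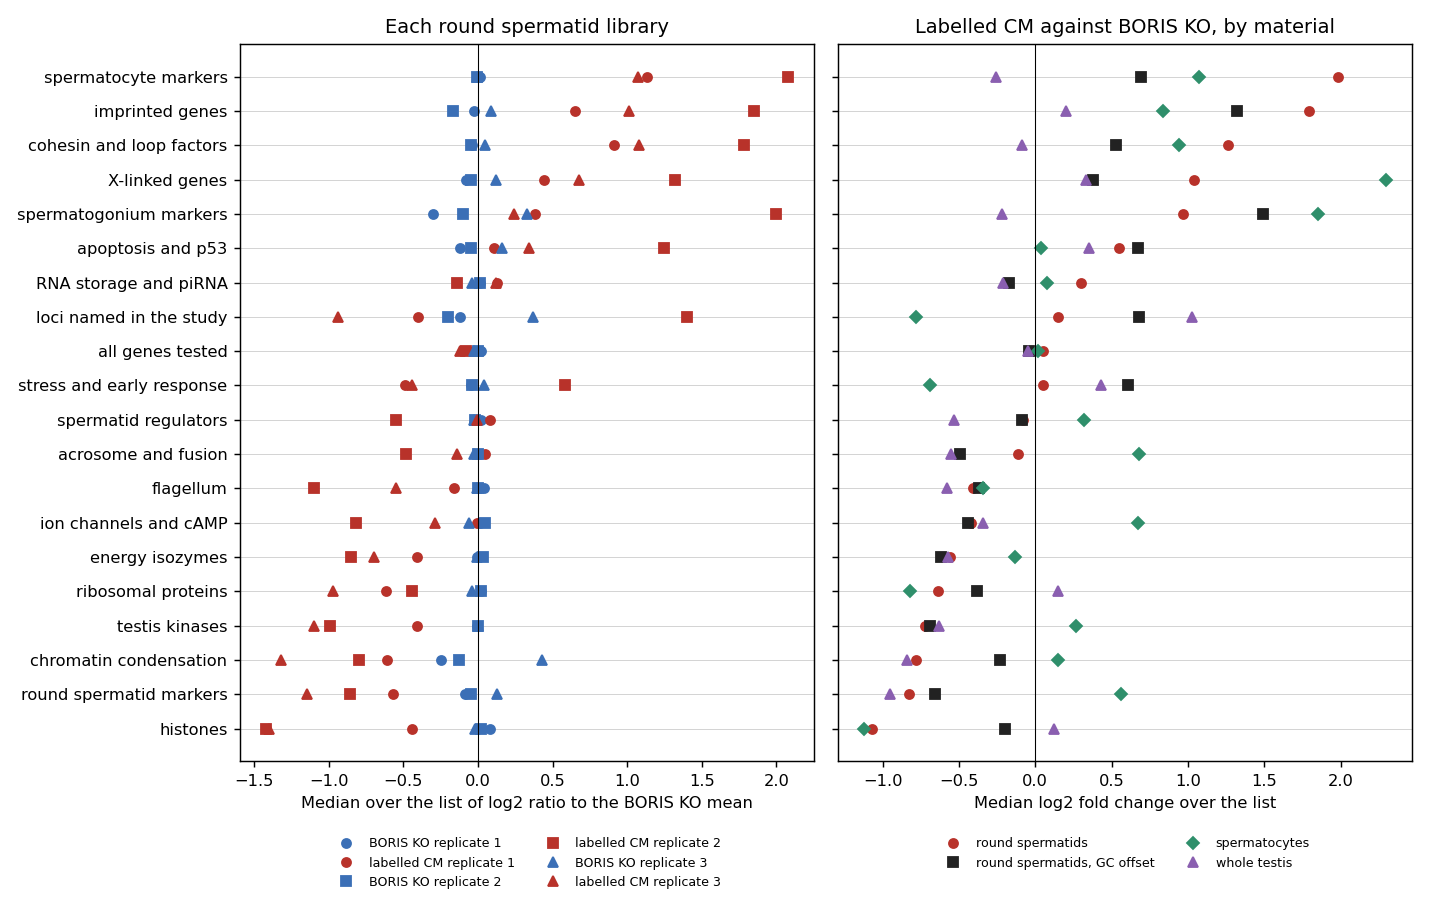
Left, median over each gene list of the log2 ratio of a library's CPM to the BORIS KO mean, 1 point for each round spermatid library, where a pseudocount of 0.1 CPM was added. Right, median log2 fold change of each list in round spermatids, without and with the GC offset, and in spermatocytes and whole testis of the same labels. CM-labelled replicate 2 has the largest medians for spermatocyte (2.08) and spermatogonium markers (2.00), and all 3 CM-labelled libraries lie below all 3 BORIS KO libraries for round spermatid markers.

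The same comparison was made in spermatocytes, in separate libraries. There 3456 of 14292 genes (24.2%) were called, 1698 (11.9%) higher and 1758 (12.3%) lower, and 1380 of 13865 (9.95%) with the GC offset. The mean GC content weighted by counts of BORIS KO spermatocytes was 49.0 to 49.1%, as against 46.5 to 47.2% for the CM-labelled libraries. The 10 genes with the smallest p among those higher in round spermatids were all higher there too, with *Hspb11* at 2.60, *Hnrnpr* at 2.08, *Sfr1* at 3.05 and *Rltpr* at 4.44 on the log2 scale. Of the 10 lower genes, *1700003F12Rik* (-0.41), *1700125D06Rik* (-0.86), *4930596M17Rik* (-2.01) and *Nkx2-6* (0.22) were not called in spermatocytes, and the others were lower. Of the spermatocyte markers 11 of 22 were higher and 1 lower (median 1.07), and with the GC offset 3 were higher and 0 lower (median 0.21). Round spermatid markers had 3 of 20 higher and 0 lower in spermatocytes (median 0.56, or 0.96 with the offset and 4 higher). The test of the difference between the comparisons called 0 of 16244 genes, with 2543 at an unadjusted p < 0.05, whereas DESeq2 called 691. Without CM-labelled round spermatid replicate 1 or 2 the count was 815 or 10, and without CM-labelled spermatocyte replicate 1 it was 624.

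In germ cell preparations of whole testis, depleted of ribosomal RNA and sequenced on an Ion Proton rather than an Illumina instrument, 1 of 16655 genes was called (0.00600%), *Rltpr*, at 0.803 to 1.80 CPM in BORIS KO and 41.4 to 77.8 CPM in CM. Apart from *Rltpr*, the 10 genes named as higher in round spermatids had log2 fold changes there from -0.65 (*Rpf2*) to 0.39 (*1300002E11Rik*). The 10 named as lower had values from -1.29 (*1700003F12Rik*) to 0.30 (*Rpl13*). At an unadjusted p < 0.05 there were 3594 genes and DESeq2 called 1032. Same-numbered libraries had residual correlations of 0.148 to 0.438 and the others of -0.596 to 0.441. The highest was that of CM replicate 3 with BORIS KO replicate 2, so pairing by number is uncertain. With the replicate number as a block 1004 genes were called. The count was 0 without BORIS KO replicate 1 or 3 and 1279 without CM replicate 2. No trend on GC content was seen there, with medians of -0.06 to -0.03 across the 4 GC quartiles. Of the lists, round spermatid markers and chromatin condensation genes had medians of -0.95 and -0.84 and cohesin genes -0.09, while X-linked genes had 0.33. Markers of somatic cells had medians above 0 there, 1.31 for Leydig cells, 1.20 for macrophages, 0.92 for stroma and endothelium and 0.79 for Sertoli cells. None of the members of these lists was called in whole testis, and the part of somatic cells in the spermatid lists was not tested.

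Removing 1 *Ctcf* allele from mice with BORIS (CTCF HET against WT, 6 other round spermatid libraries) gave 821 calls among 15238 genes (5.39%), 225 (1.48%) higher and 596 (3.91%) lower. The difference between the comparisons was tested in 1 fit over the 12 libraries and called 5113 of 16200 genes (31.6%), 2549 (15.7%) with the larger value in CM against BORIS KO and 2564 (15.8%) with the smaller, or 2240 of 15604 (14.4%) with the GC offset. The GC trends ran in opposite directions, with a median for CTCF HET against WT of -0.29 in the lowest and 0.42 in the highest GC quartile. The genes with the smallest p in this test were *Rpf2*, *Zfp326*, *Snx4*, *Hnrnpr* and *Zranb2*, an RNA-binding protein of the spliceosome. *Rpf2* averaged 144 ± 15.4 CPM in WT and 63.4 ± 13.3 CPM in CTCF HET (SD, n = 3), and 19.6 to 24.7 CPM were measured in BORIS KO and 101 to 125 CPM in the CM-labelled libraries. Its log2 fold change was -1.20 for CTCF HET against WT and 2.45 here, a difference of 3.63 ± 0.26 (adjusted p = 9.21e-05, edgeR). *Rltpr* rose in both comparisons, by 6.25 and 4.48, and the difference of -1.81 ± 0.39 was called (adjusted p = 0.00383, edgeR).

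Positions of CTCF and BORIS peaks from WT testis, and of CTCF peaks from CM testis, were set beside the calls. A gene was placed by a peak summit within 1 kb of an annotated start. Of 2043 genes with a peak of both proteins (CTCF/BORIS) 176 (8.61%) were higher and 250 (12.2%) lower, and of 2843 with CTCF alone 241 (8.48%) and 295 (10.4%). Genes with BORIS alone differed more from the background of 9.51% higher and 8.88% lower, with 107 of 606 higher (17.7%) and 61 lower (10.1%), a median of 0.38 and exons of 48.4% GC as against 51.7% for the CTCF/BORIS genes. Of the BORIS-only genes 11 were higher and 6 lower with the GC offset, and the median was 0.15. CTCF/BORIS genes whose CTCF peak was listed in CM testis had a median of -0.13 (1020 genes) and those whose peak was not listed 0.16 (1023 genes), or -0.00 and 0.15 with the GC offset. The peaks come from germ cells of whole testis, not from sorted spermatids.

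The sites under the CTCF peaks of 7 named genes are printed here, as examples of both directions of change. The letters CC and, after 3 bases of any kind, AG and, after 2 more, GGC were searched on both strands in the 201 bases centred on each summit. They are a loose form of the core of the CTCF motif and were present in 49.6% of 34625 WT CTCF peaks, 54% of 7652 BORIS peaks and 8.85% of windows of this length on the starts of the genes tested. Each line gives 30 bases of mm9, 5′ to 3′ on the strand of the match, with the matched letters in capitals.
Sycp2, chr2:178142439-178142468, plus strand: aaccgcctgCCAGCAGGGGGCgctgtgccg
Smc3, chr19:53674390-53674419, plus strand: ggctcggaaCCAGCAGGAGGCgctctgagc
Dazl, chr17:50432244-50432273, minus strand: cgggcgcctCCGCCAGGTGGCgcctaggct
Mybl1, chr1:9690406-9690435, minus strand: ggacaaaacCCTGCAGGAGGCtgcgagtgc
Mfi2, chr16:31878803-31878832, plus strand: ttggaccggCCGGCAGGGGGCagaggaggc
Aldoart2, chr12:56665724-56665753, plus strand: ccaaggcggCCAGAAGGGGGCactgtatgt
Rfx2, chr17:56970763-56970792, minus strand: cacgcactgCCACCAGTGGGCcctcgcgca
The summits lay 50, 460, 32, 133, 62, 509 and 341 bp upstream of the nearest annotated start of these genes, in the order printed, and the sites lie outside the annotated span of the gene except at *Dazl*. The first 4 genes were higher in the CM-labelled spermatids, by 2.09, 1.82, 3.21 and 1.44 on the log2 scale, and the last 3 lower, with log2 fold changes of -1.10, -2.01 and -1.19. The CTCF peak was listed in CM testis at *Sycp2*, *Smc3*, *Dazl*, *Mfi2* and *Aldoart2* and not at *Mybl1* and *Rfx2*. The genes were chosen with their directions known, so they show nothing about the direction of change at kept or unlisted peaks. At *Mybl1* and *Aldoart2* no BORIS peak overlapped the CTCF peak.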

How the data were processed

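RNA-seq libraries of sorted round spermatids were compared, 3 of BORIS KO and 3 labelled CM, beside libraries of spermatocytes, of whole testis and of WT and CTCF HET round spermatids. The authors deposited tables of raw counts of reads for each gene (23284 genes, mm9), for sorted cells from poly(A)-selected RNA. The counting tool, its version and its use of strand are not given in the sources used here. For CTCF and BORIS ChIP-seq of testis germ cells the authors deposited 1 peak list for each protein and genotype with a peak height, a coverage signal, and a summit.

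Counts were fitted with edgeR 4.0.16 (R 4.3.3; filterByExpr, TMM, robust quasi-likelihood F-test, two-sided, Benjamini-Hochberg adjustment over all genes tested). Calls needed an adjusted p < 0.05 and a fold change above 2. Tests of a difference between comparisons used 1 interaction fit, edgeR again. Exon GC content came from GENCODE vM1 (22011 of 23284 genes matched). The GC offset, chosen after seeing the data, removed a spline of 5 degrees of freedom on GC content from each library. Other alternatives were DESeq2 1.42.0, RLE scaling, no low-count filter, a replicate block, all 4 genotypes in 1 fit, a stricter p, and each library left out. The fits were tested on simulated data. No columns of per-sample values were left unused (0).

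Named genes were *Ctcf*, *Ctcfl*, *Rltpr*, the loci of the study, the 10 called genes of smallest p in each direction (mean of at least 1 CPM, no overlap), up to 5 called members of each list or else its 2 to 4 most abundant, and up to 5 genes with a called interaction. The printed sites were chosen after their values were seen. A called member of 1 list is not reported here. The comparison and all lists were chosen with earlier results of these data known. Of the list symbols 6 were not found in the table. In round spermatids and spermatocytes same-numbered libraries did not deviate together. In whole testis they did, though a pair of different numbers did so as strongly, and the blocked count is printed there.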

Additional observations from a re-analysis of the deposited data

Results flagged for a closer look

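The difference between CM and BORIS KO differed from the difference between CTCF HET and WT, in round spermatids, for 5113 genes in a test of the difference itself (edgeR quasi-likelihood interaction, adjusted p < 0.05 and fold above 2). The 2 comparisons share no library. *Ctcf* was among them, with an interaction log2 of 2.10 ± 0.65 (SE, adjusted p = 0.0231, edgeR). *Rltpr*, higher in both comparisons, had an interaction log2 of -1.81 ± 0.39 (adjusted p = 0.00383, edgeR). The 5 genes with the smallest p had positive values, 3.92 for *Zfp326*, 2.91 for *Snx4*, 3.63 for *Rpf2*, 3.27 for *Hnrnpr* and 3.84 for *Zranb2*. In each of the 5 the WT mean lay nearer to the CM-labelled than to the BORIS KO mean, and each stood lower in CTCF HET than in WT and higher in the CM-labelled libraries than in BORIS KO. With the GC offset 2240 genes were called in this test.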

How the results depend on the processing

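The replicate number as a block left 2362 calls in round spermatids, where same-numbered libraries had residual correlations of -0.278 to 0.244. It gave 1004 in whole testis, where these were 0.148 to 0.438 but a pair of different numbers reached 0.441. The blocked log2 fold change was -0.71 for *Ankrd52* and -0.09 for *Ssr4*, both reversed and not called, and 83 of 96 called named genes kept their call. With the GC offset the calls were 301 in round spermatids, 1380 in spermatocytes and 2240 for the difference from CTCF HET against WT, 20 list members were called rather than 112, and *Ctcfl* (0.10), *Prss50* (0.06) and *Ybx2* (0.22) reversed. Of 95 called named genes with a GC value 26 kept their call. With all 4 genotypes in 1 fit 4647 genes were called in round spermatids and 304 in whole testis, and *Ctcf* was called at 1.67 (1.65 in DESeq2). DESeq2 called 691 genes for the difference from spermatocytes and 1032 in whole testis, or 23 and 49 at adjusted p < 0.001. At that threshold edgeR called 0 genes in round spermatids (1258 with all 4 genotypes in 1 fit), 0 in whole testis (1 with all 4 genotypes), 1001 in spermatocytes and 773 for the difference from CTCF HET against WT. With no fold threshold 7403 genes were called in spermatocytes. CTCF peaks higher than the median height left 430 called genes with a CTCF peak at the promoter, of 962. Scaling by RLE and no low-count filter kept the counts over all genes within 1.5 times. With RLE 2 rather than 1 spermatogonium markers were higher and 2 rather than 1 histone genes lower. Summits within 2 kb put 931 rather than 545 genes at CTCF-only peaks kept in CM testis, 55 rather than 33 of them higher and 103 rather than 62 lower.

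Without 1 library the calls ranged from 0 to 5243 in round spermatids, from 0 to 815 for the difference from spermatocytes and from 0 to 1279 in whole testis, and list members from 0 to 179. The cause was not tested, and 2 libraries in 1 group leave fewer degrees of freedom. None of the 96 called named genes kept its call without any 1 BORIS KO library, against 95, 82 and 34 without CM-labelled replicate 1, 2 and 3. *Ctcf* ranged from 0.63 to 2.00, *Rltpr* from 4.08 to 4.67 (not called without a BORIS KO library), *Fads1* from -0.15 to 1.75, *Ankrd52* from -1.43 to 0.66, *Ssr4* from -0.92 to 0.93 and *Star* from -0.15 to 0.47. Genes near 1 CPM, such as the X-linked loci of the study, rest on few counts in single libraries.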

Other observations

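Genes were also grouped by their WT levels in the 2 sorted cell types. Of 3029 genes at least 4-fold higher in WT round spermatids than in WT spermatocytes, 267 were higher (8.81%) and 293 lower (9.67%) in the CM-labelled spermatids. These shares were near the 9.51% and 8.88% of all genes tested, and the median log2 fold change was -0.08. In spermatocytes of the same labels 743 of the 2140 tested were higher and 18 lower (median 1.07, or 0.87 with the GC offset). There 11.9% of all genes were higher and 12.3% lower. Of 1245 genes at least 4-fold higher in WT spermatocytes, 152 were higher (12.2%) and 55 lower (4.42%) in the CM-labelled spermatids (median 0.31). In spermatocytes 80 of them were higher and 239 lower (median -0.24).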
